A study of Mus musculus with 6 samples.

Results

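The genes described here encode 10 proteins of lipid droplets and of triglyceride turnover, namely Plin2, Plin3, Plin4, Plin5, Dgat1, Dgat2, Cidea, Cidec, G0s2 and Mgll. They were chosen by symbol, and each was found on 1 of the 52550 rows of the deposited gene table. RNA came from the left ventricle of C57BL/6J mice aged 12 months, with 3 libraries labelled PKI, for PGC-1α overexpression, and 3 labelled wild-type (WT). What drives the overexpression is not given in the sources used here. Nor do the labels tie each library to its own mouse, and the p-values below can therefore reflect technical spread alone.

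A lipid droplet is a core of neutral lipid, mainly triglyceride, under a phospholipid monolayer that carries proteins. In heart muscle it buffers the fatty acids that the cell takes up and later burns in its mitochondria. Triglyceride is made by acylation of diacylglycerol, which DGAT1 and DGAT2 catalyse as unrelated enzymes. It is broken down in turn by the lipase ATGL (encoded by Pnpla2), by hormone-sensitive lipase and by the monoglyceride lipase MGLL. Perilipins coat the droplet and govern the access of lipases, CIDE proteins move lipid between droplets in contact, and G0S2 binds and inhibits ATGL.

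Of the 10 genes, 9 reached the level for testing, a mean of 1 FPKM over the 6 libraries (FPKM are mapped fragments scaled to transcript length and library total). Cidec did not. Among the 9, Cidea and Plin3 rose, Dgat2 fell and 6 did not pass the test (limma, adjusted p under 0.05 over all 9907 tested genes). For comparison, 39.4% of all tested genes were called, 36.4% higher and 2.96% lower, so 2 higher calls among 9 is no more than the background. Values as deposited are displaced as a whole: across the tested genes log2 changes had a median of 0.21, and across the 9 genes one of 0.10. Dividing each library by its median-of-ratios size factor, called "after scaling" below, brought these medians to 0.00 and −0.09. After scaling, Cidea was higher, Dgat2 and Plin5 were lower and the call of Plin3 was lost, against a background of 16.8% of all tested genes called, 8.54% higher and 8.23% lower. Log2 changes are given as PKI minus WT of log2(FPKM + 1), so changes of weakly expressed genes come out too small.

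Ppargc1a, which encodes PGC-1α, a coactivator of genes of mitochondrial biogenesis and fatty acid oxidation, did not rise where the labels say PKI. It stood at 11.6, 11.8 and 11.4 FPKM in libraries labelled PKI, against 14.2, 12.8 and 12.4 FPKM in WT libraries (log2 change −0.16, SE 0.07, limma adjusted p = 0.0967). By exact permutation (two-sided) p was 0.1, the smallest that 20 arrangements of 3 against 3 allow, and after scaling Ppargc1a was lower (log2 change −0.42, limma adjusted p = 0.00663). Directions below therefore follow the labels and not a measured rise in Ppargc1a. FPKM added up to between 708058 and 726064 in libraries labelled PKI and between 747154 and 767757 in WT libraries, and genes of the mitochondrial genome with their nuclear copies took between 78.0% and 78.2% in libraries labelled PKI and between 81.8% and 82.3% in WT libraries. Depth is unknown. The listed markers of heart muscle cells were strongly expressed in all libraries, with a summed level of 7 markers between 9192 and 10150 FPKM in libraries labelled PKI and between 8820 and 9586 FPKM in WT libraries. Atrial markers set 2 libraries apart: the summed level of Myl7, Myl4 and Sln was 10.1, 19.9 and 114 FPKM in libraries labelled PKI, against 107, 60.2 and 135 FPKM in WT libraries. Without PKI replicates 1 and 2, and with the lone PKI library assumed to vary like the WT libraries, Cidea (log2 change 0.63, limma adjusted p = 0.0676), Dgat2 (−0.26, 0.141) and Plin3 (0.21, 0.191) did not pass as deposited, nor did Cidea (0.39, 0.205), Dgat2 (−0.51, 0.0797) and Plin5 (−0.38, 0.301) after scaling, while G0s2 passed as deposited (0.71, 0.0423) and not after scaling (0.46, 0.123). The part of these 2 libraries' make-up in the results was not tested.

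The promoters of Plin2 and Plin5 are shown because theirs were the 2 windows, of the 10 matched in RefSeq promoters of 7 of the 10 genes (GRCm38.p6), that held the core AGGTCA, read by nuclear receptors such as the PPARs, on either strand. Dgat1, Dgat2 and Cidea had no matched window and were not searched, and the other window matched for Plin5 held no core. The core was found in 14.0% of all 32851 promoter windows. Capitals mark the core as it reads in the printed strand, the strand of the gene, from 250 to 51 bases before the RefSeq start. The Plin2 stretch lies at chr4:86670110-86670309 and the Plin5 stretch at chr17:56117599-56117798, both on the minus strand.
Plin2: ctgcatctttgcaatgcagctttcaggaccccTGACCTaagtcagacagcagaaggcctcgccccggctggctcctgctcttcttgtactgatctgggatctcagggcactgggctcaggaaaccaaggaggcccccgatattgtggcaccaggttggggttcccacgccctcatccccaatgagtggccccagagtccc
Plin5: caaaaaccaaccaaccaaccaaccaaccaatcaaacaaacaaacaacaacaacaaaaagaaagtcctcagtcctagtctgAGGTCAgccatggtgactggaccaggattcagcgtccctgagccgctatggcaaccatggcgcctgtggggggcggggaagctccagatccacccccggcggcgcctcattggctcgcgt
In Plin2 the core lay on the opposite strand and began at position −218 from the start, and in Plin5 it lay on the strand of the gene and began at position −170. The full PPAR element, a direct repeat of this core with any 1 base between the copies, was in 0 of the 10 windows and in 0.0335% of all windows. The element TGACGTCA and the box TATAAA were in 0 of the 10 windows (1.55% and 12.4% of all), and the E-box CACGTG was in 1, that of Mgll (6.02% of all). Each was searched over 250 bases on both strands. A match in the letters is a description and not a binding site.

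**Figure D1:**
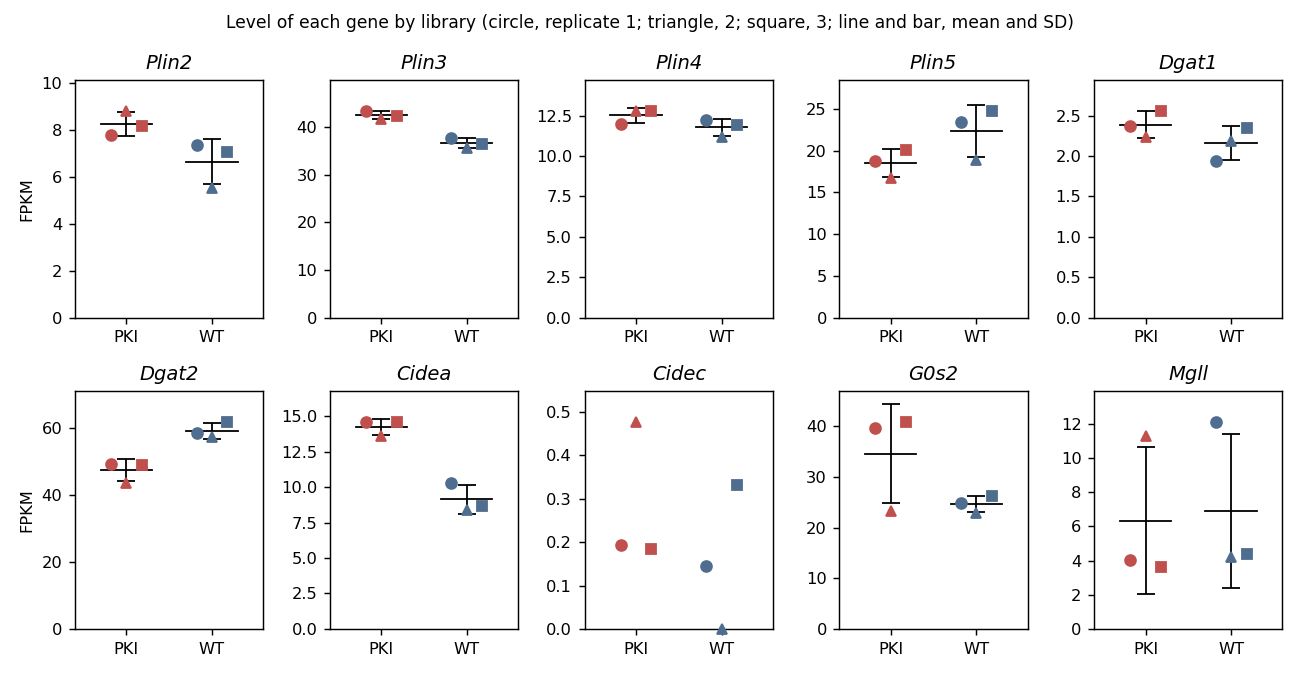
Level in FPKM of each of the 10 genes in every library labelled PKI (left, red) and WT (right, blue), with the symbol giving the replicate number and the line and bar giving mean and SD (n = 3; none is drawn for Cidec, which is listed at 0 in a WT library). As deposited, the PKI values of Cidea, Plin3 and Plin2 lie above all WT values, as for 51.3% of all tested genes, and Plin2 did not pass the test. Those of Dgat2 lie below all WT values (4.53% of all tested genes), while for Mgll 1 library of each group stands apart.

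Of the perilipins, Plin3 alone passed the test as deposited and Plin5 alone after scaling. Plin3 (ENSMUSG00000024197, chromosome 17: 56277476 to 56292873, minus strand, GRCm38), which is found in many cell types and moves from the cytosol to newly formed droplets, stood at 43.4, 41.7 and 42.4 FPKM in libraries labelled PKI, against 37.6, 35.5 and 36.5 FPKM in WT libraries. The groups did not overlap, with all 3 PKI values above all 3 WT values, an order that held for 51.3% of all tested genes as deposited. Plin3 rose 1.16-fold (log2 change 0.21, SE 0.06, limma adjusted p = 0.0224), which equals the median of all tested genes, and after scaling its log2 change was −0.05 (limma adjusted p = 0.555). Its call was lost without PKI replicate 1 (limma adjusted p = 0.0690), PKI replicate 3 (0.0679), WT replicate 2 (0.0635) or WT replicate 3 (0.0650).

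Plin2 (ENSMUSG00000028494, chromosome 4: 86648386 to 86670060, minus strand), the perilipin whose protein is stable only on droplets and which rises with lipid loading in many tissues, had 7.78, 8.80 and 8.14 FPKM in libraries labelled PKI, against 7.35, 5.53 and 7.03 FPKM in WT libraries. The groups did not overlap, but the test was not passed (log2 change 0.28, 95% interval 0.03 to 0.53, limma adjusted p = 0.0706), and after scaling the log2 change was 0.04. Macrophages also carry this gene, and the summed level of 7 macrophage markers was 207 to 223 FPKM in libraries labelled PKI and 68.0 to 105 FPKM in WT libraries, with 7 of 7 higher as deposited and 6 of 7 after scaling. Their part in the level of Plin2 was not tested. In bulk tissue, more cells of a type and more RNA per cell cannot be told apart.

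Plin5 (ENSMUSG00000011305, chromosome 17: 56111601 to 56117596, minus strand), the perilipin of oxidative tissues that tethers droplets to mitochondria, had 18.8, 16.7 and 20.1 FPKM in libraries labelled PKI, against 23.5, 18.9 and 24.8 FPKM in WT libraries. WT replicate 2, at 18.9 FPKM, fell within the range of the PKI values, so the groups overlapped as deposited. The difference did not pass (log2 change −0.26, SE 0.12, limma adjusted p = 0.113), but passed without WT replicate 2 (log2 change −0.37, limma adjusted p = 0.0361). After scaling Plin5 was lower (log2 change −0.52, SE 0.12, limma adjusted p = 0.0253). This call was lost without PKI replicate 1 (limma adjusted p = 0.0677), PKI replicate 2 (0.0690), WT replicate 1 (0.0633) or WT replicate 3 (0.0844).

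Plin4 (ENSMUSG00000002831, chromosome 17: 56100591 to 56109803, minus strand), a perilipin of adipose tissue and striated muscle, is the neighbour of Plin5, with 1797 bases and 0 annotated genes between them. Its level was 12.0, 12.8 and 12.8 FPKM in libraries labelled PKI, against 12.2, 11.2 and 11.9 FPKM in WT libraries. The groups overlapped and the log2 change was 0.08 (95% interval −0.07 to 0.23, limma adjusted p = 0.333). After scaling the log2 change was −0.17 and did not pass (95% interval −0.32 to −0.03, limma adjusted p = 0.107). Hdgfl2 overlaps Plin4 on the other strand, at a mean of 4.16 FPKM in libraries labelled PKI and 2.87 FPKM in WT libraries, and the kit used does not mark strand, so reads in the overlap cannot be told apart.

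The plain ratio of Plin5 to Plin2 FPKM does not depend on the scaling between libraries. It was 2.42, 1.89 and 2.47 in libraries labelled PKI, against 3.20, 3.42 and 3.52 in WT libraries. All 3 PKI ratios lay below the WT ratios. The log2 ratio was taken of FPKM + 1 and is therefore not free of scaling. Its mean differed by −0.54 (PKI 1.08 ± 0.20, WT 1.62 ± 0.06, SD, n = 3 each). An exact permutation test, two-sided, returned p = 0.1, the smallest possible here, and 0.2 after adjustment over the 4 ratios computed, so this permutation test cannot go below 0.05 with 3 libraries a group.

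Of the acyltransferases of the last step of triglyceride synthesis, Dgat2 fell and Dgat1 did not pass. Dgat2 (ENSMUSG00000030747, chromosome 7: 99153658 to 99182719, minus strand), which works at the endoplasmic reticulum and on droplets, had the highest level of the 10 genes in both groups. It stood at 49.5, 43.8 and 49.2 FPKM in libraries labelled PKI, against 58.7, 57.3 and 61.9 FPKM in WT libraries. Every PKI value lay below every WT value, an order seen for 4.53% of all tested genes as deposited. Dgat2 fell 1.25-fold (log2 change −0.32, SE 0.07, limma adjusted p = 0.0137), and after scaling it was lower by more (log2 change −0.58, SE 0.07, limma adjusted p = 0.00304). As deposited the call was lost without WT replicate 3 (log2 change −0.28, limma adjusted p = 0.0503), while after scaling it held without each library in turn (limma adjusted p between 0.00743 and 0.0174).

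Dgat1 (ENSMUSG00000022555, chromosome 15: 76502015 to 76511953, minus strand), the acyltransferase of the endoplasmic reticulum that re-esterifies fatty acids taken up or set free, had 2.37, 2.23 and 2.56 FPKM in libraries labelled PKI, against 1.94, 2.19 and 2.35 FPKM in WT libraries. These ranges overlapped and the test was not passed (log2 change 0.10, 95% interval −0.09 to 0.29, limma adjusted p = 0.339), with a log2 change of −0.09 after scaling. The ratio of Dgat1 to Dgat2 was 0.0479, 0.0509 and 0.0520 in libraries labelled PKI, against 0.0330, 0.0383 and 0.0380 in WT libraries. All PKI ratios lay above the WT ratios, and Dgat2 had by far the higher deposited FPKM in all 6 libraries. For both genes the deposited values have the form of an average over transcripts. Whether this bears on the comparison of their levels was not tested. The difference in mean log2 ratio was 0.42 (PKI −3.84 ± 0.06, WT −4.26 ± 0.08, SD, n = 3 each), at an exact permutation p = 0.1, the smallest possible, and 0.2 adjusted over the 4 ratios.

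Some heart muscle markers also differed between the groups. Of 7 such markers, Tnni3, Myl2 and Pln fell and Actc1 rose as deposited, and after scaling 5 were lower and the other 2 did not pass. Fibroblast markers were higher, with a summed level of 6 markers between 219 and 269 FPKM in libraries labelled PKI and between 81.2 and 119 FPKM in WT libraries, and 5 of 6 were called in both fits. Whether these shifts bear on Dgat2 and Plin5 was not tested.

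**Figure D2:**
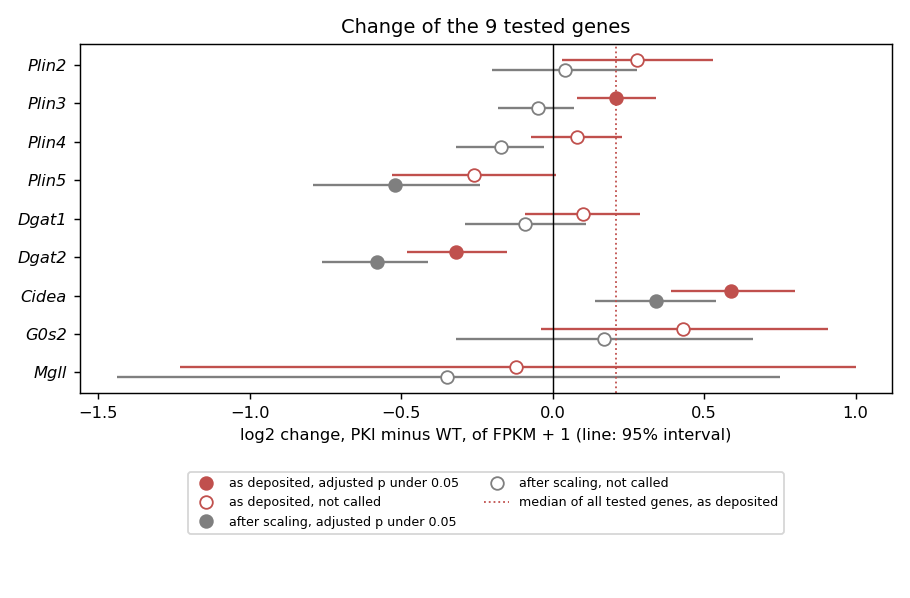
Log2 change (PKI minus WT, of FPKM + 1) of the 9 tested genes with its 95% interval, as deposited (red) and after scaling (grey), filled where the adjusted p was under 0.05 and open where it was not. Dgat2 lies below 0 and Cidea above 0 in both fits, Plin5 is filled after scaling and Plin3 as deposited, and the dotted line marks the median of all tested genes at 0.21.

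Of the CIDE proteins, Cidea (ENSMUSG00000024526, chromosome 18: 67343604 to 67367785, plus strand), which enlarges droplets by lipid transfer and is best known from brown fat, showed the largest log2 change of the 3 genes that passed the test. It had 14.6, 13.6 and 14.6 FPKM in libraries labelled PKI, against 10.3, 8.43 and 8.68 FPKM in WT libraries. All PKI values lay above all WT values as deposited, an order seen for 51.3% of all tested genes. Cidea rose 1.56-fold (log2 change 0.59, SE 0.09, 95% interval 0.39 to 0.80, limma adjusted p = 0.00351), and after scaling the log2 change was 0.34 (SE 0.08, limma adjusted p = 0.0332). As deposited the call held without each library in turn (limma adjusted p between 0.00252 and 0.0178). After scaling it was lost without PKI replicate 1 (limma adjusted p = 0.0964), PKI replicate 3 (0.113), WT replicate 2 (0.0974) or WT replicate 3 (0.112).

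Cidec (ENSMUSG00000030278, chromosome 6: 113424634 to 113435760, minus strand), the CIDE protein of white fat and fatty liver, was the lowest of the 10 genes in both groups, at 0.193, 0.477 and 0.185 FPKM in libraries labelled PKI, against 0.145 and 0.331 FPKM in 2 WT libraries and a listing at 0 in WT replicate 2. The ranges overlapped, and Cidec was not tested.

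Adipocytes express both CIDE genes. Adipoq, the adipocyte hormone adiponectin, was at 0.0741, 1.16 and 0.415 FPKM in libraries labelled PKI, against 0.323, 0.127 and 0.586 FPKM in WT libraries. Plin1, the perilipin of adipocytes, was at 0.0109, 0.330 and 0.146 FPKM in libraries labelled PKI, against 0.0462, 0.0108 and 0.224 FPKM in WT libraries. Both ranges overlapped, and Adipoq and Plin1 were highest in PKI replicate 2, as Cidec was. Cidea differed little among the libraries labelled PKI, at 14.6, 13.6 and 14.6 FPKM. Retn was at 0.147, 0.239 and 0 FPKM in libraries labelled PKI, against 0.117, 0 and 0.217 FPKM in WT libraries. Lep was at 0.0296, 0.0350 and 0.0289 FPKM in libraries labelled PKI and was listed at 0 in all WT libraries, and Ucp1, which marks brown fat, was listed at 0 in all libraries but PKI replicate 3. The summed level of the 8 markers was 61.3 to 64.6 FPKM in libraries labelled PKI and 50.5 to 60.8 FPKM in WT libraries, just without overlap. Most of it was Fabp4, which endothelial cells also express and whose own values overlapped between the groups. Cfd, the adipocyte protease adipsin, was at 1.08, 3.65 and 2.40 FPKM in libraries labelled PKI, against 1.13, 0.0545 and 0.822 FPKM in WT libraries (3.55-fold, log2 change 1.00, 95% interval 0.18 to 1.82, limma adjusted p = 0.056). Car3 lay between 0.975 and 4.10 FPKM in libraries labelled PKI and between 0.289 and 1.65 FPKM in WT libraries (2.02-fold, limma adjusted p = 0.282). Cfd, Car3 and Fabp4, the 3 tested markers, did not pass in either fit, and the part of adipocytes in the level of Cidea was not tested. Genes on the other strand overlap Cidea (B430212C06Rik, at a mean of 0.205 FPKM in libraries labelled PKI and 0.299 FPKM in WT libraries) and G0s2 (Lamb3, at 0.817 FPKM in libraries labelled PKI and 1.10 FPKM in WT libraries).

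Tested genes with a predicted-gene name or no symbol were left out of the search for like profiles. Of the rest, those whose values ran closest to Cidea over the 6 libraries were Lyve1, Ptges3 and Man1a. Their root-mean-square distances from Cidea in centred log2(FPKM + 1) were 0.028, 0.0311 and 0.0372. Lyve1, for instance, was at 4.35, 4.08 and 4.68 FPKM in libraries labelled PKI, against 2.99, 2.26 and 2.42 FPKM in WT libraries.

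Of the genes of lipolysis, Mgll varied widely within both groups and G0s2 among the PKI libraries. G0s2 (ENSMUSG00000009633, chromosome 1: 193272161 to 193273217, minus strand), the inhibitor of ATGL, had 39.6, 23.3 and 40.8 FPKM in libraries labelled PKI, against 24.8, 22.9 and 26.2 FPKM in WT libraries. PKI replicates 1 and 3 lay above all WT values and PKI replicate 2 lay among them, so the groups overlapped. The difference did not pass (1.40-fold, log2 change 0.43, SE 0.20, 95% interval −0.04 to 0.91, limma adjusted p = 0.123). Without PKI replicate 2 the log2 change was 0.69 and passed (limma adjusted p = 0.00434), as it did with array weights, which count variable libraries less (log2 change 0.54, limma adjusted p = 0.0381). The call of G0s2 as deposited therefore turned on PKI replicate 2 and on the weighting of libraries. After scaling, with all libraries, G0s2 did not pass (log2 change 0.17, 95% interval −0.32 to 0.66, limma adjusted p = 0.639).

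Pnpla2, the gene of ATGL itself, had 44.6, 41.7 and 49.6 FPKM in libraries labelled PKI, against 49.1, 48.2 and 42.3 FPKM in WT libraries (log2 change −0.04, limma adjusted p = 0.737). The ratio of G0s2 to Pnpla2 was 0.889, 0.558 and 0.822 in libraries labelled PKI, against 0.505, 0.475 and 0.619 in WT libraries. PKI replicate 2 again lay within the WT range. The difference in mean log2 ratio of FPKM + 1 was 0.47, at an exact permutation p = 0.2 (0.267 adjusted over the 4 ratios).

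Mgll (ENSMUSG00000033174, chromosome 6: 88724412 to 88828360, plus strand), which releases glycerol from monoglyceride and also breaks down the endocannabinoid 2-arachidonoylglycerol, had 4.05, 11.3 and 3.63 FPKM in libraries labelled PKI, against 12.1, 4.19 and 4.40 FPKM in WT libraries. PKI replicate 2 and WT replicate 1 stood far above the other 4 libraries, which kept to a narrow range. The groups overlapped and the interval of the difference was wide (log2 change −0.12, 95% interval −1.23 to 1.00, limma adjusted p = 0.851). This interval holds sizeable changes of either sign. After scaling the log2 change of Mgll was −0.35 and did not pass (limma adjusted p = 0.668). The ratio of Mgll to Pnpla2 carried the same 2 high libraries, at 0.0908, 0.272 and 0.0731 in libraries labelled PKI, against 0.247, 0.0870 and 0.104 in WT libraries. An exact permutation test of its log2 ratio of FPKM + 1 gave p = 0.8, also 0.8 adjusted over the 4 ratios.

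**Figure D3:**
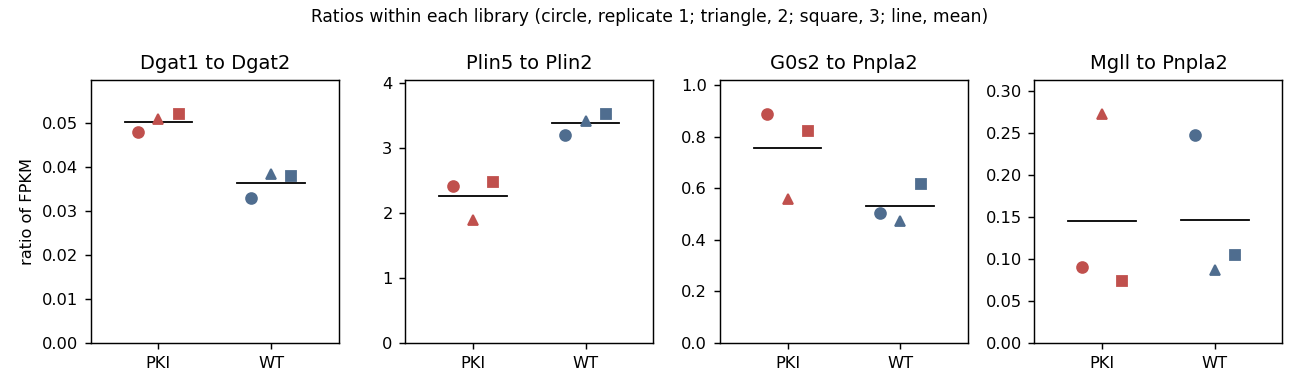
Ratio of FPKM of 2 genes within each library labelled PKI (left, red) and WT (right, blue), with the symbol giving the replicate number and the line the mean of 3 libraries. The Dgat1 to Dgat2 ratios of PKI lie above and the Plin5 to Plin2 ratios below all WT ratios, while the G0s2 to Pnpla2 and Mgll to Pnpla2 ratios overlap.

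The levels of the 10 genes, which FPKM set on a scale per length, spanned a wide range in the same broad order in both groups. In libraries labelled PKI the order of mean FPKM was Dgat2 (47.5 ± 3.24), Plin3 (42.5 ± 0.837), G0s2 (34.5 ± 9.79), Plin5 (18.5 ± 1.74), Cidea (14.3 ± 0.613), Plin4 (12.5 ± 0.430), Plin2 (8.24 ± 0.516), Mgll (6.33 ± 4.32), Dgat1 (2.39 ± 0.165) and Cidec (SD, n = 3). Only Plin2 and Mgll among these neighbours had overlapping ranges in libraries labelled PKI. WT libraries had Dgat2 (59.3 ± 2.36), Plin3 (36.5 ± 1.06), G0s2 (24.6 ± 1.68), Plin5 (22.4 ± 3.08), Plin4 (11.8 ± 0.495), Cidea (9.15 ± 1.03), Mgll (6.91 ± 4.53), Plin2 (6.64 ± 0.972), Dgat1 (2.16 ± 0.210) and Cidec (SD, n = 3). There, G0s2 and Plin5, Cidea and Mgll, and Mgll and Plin2 overlapped. Cidea thus stood above Plin4 in libraries labelled PKI and below it in WT libraries, without overlap between the 2 genes in either group. For the 7 genes other than Plin3, Cidea and G0s2, the deposited values have the form of an average over transcripts, whole steps of 1e-06 FPKM divided by 1 whole number per gene, such as 3083 for Dgat2, and whether this bears on the order of levels was not tested.

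Other genes of the pathway were followed through a list of 56 genes in 6 roles, of which 46 were tested. As deposited 9 rose and 6 fell, beside 36.4% of all tested genes called higher and 2.96% called lower, and their log2 changes had a median of 0.10. After scaling 2 were higher and 14 lower, with a median of −0.11, beside 8.54% and 8.23% of all tested genes. Counts of calls fell when some libraries were left out: without PKI replicate 3 only 3 rose, and without WT replicate 3 only 2 fell. Calls over all tested genes fell as well, to 2258 higher without PKI replicate 3 (3609 with all libraries). Without WT replicate 3 they fell to 165 lower (293 with all libraries).

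Of 6 genes of fatty acid uptake and binding, 1 fell and 5 did not pass as deposited, and 3 were lower after scaling. Slc27a1, which encodes the fatty acid transporter FATP1, fell 1.24-fold, with 7.57, 6.89 and 7.43 FPKM in libraries labelled PKI, against 9.69, 8.52 and 8.94 FPKM in WT libraries (log2 change −0.28, limma adjusted p = 0.0239; −0.52 after scaling, 0.00426). Fabp3, the abundant fatty acid binding protein of heart muscle, averaged 2114 ± 77.7 FPKM in libraries labelled PKI and 1922 ± 139 FPKM in WT libraries (SD, n = 3 each) and did not pass, nor did Fabp4 at 57.4 ± 5.25 FPKM in libraries labelled PKI and 53.1 ± 4.17 FPKM in WT libraries. Both had the opposite sign after scaling (log2 changes of −0.13 and −0.16). The other 2 that were lower after scaling were Lpl, the lipase that frees fatty acids from circulating lipoproteins (log2 change −0.26, limma adjusted p = 0.0438), and Cd36, a fatty acid carrier of the cell surface (log2 change −0.36, limma adjusted p = 0.0216).

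Acyl-CoA synthetases, which activate fatty acids, gave 2 of 5 higher as deposited, and 1 higher and 2 lower after scaling. Acsl1, the highest of the 5 in deposited FPKM, had 40.9, 43.4 and 40.6 FPKM in libraries labelled PKI, against 52.5, 39.8 and 54.2 FPKM in WT libraries. It was lower after scaling alone (log2 change −0.48, limma adjusted p = 0.0292), as was Acsl6 (log2 change −0.38, limma adjusted p = 0.0472). Acsl5 rose 1.67-fold, with 3.17, 3.44 and 3.42 FPKM in libraries labelled PKI, against 2.35, 1.68 and 1.99 FPKM in WT libraries (log2 change 0.54, limma adjusted p = 0.0064), and was also higher after scaling (log2 change 0.34, limma adjusted p = 0.047). Acsl3, an isoform of nascent droplets, passed as deposited alone (1.24, 1.39 and 1.11 FPKM in libraries labelled PKI, against 0.939, 0.936 and 0.667 FPKM in WT libraries, limma adjusted p = 0.0474; 0.335 after scaling). Acsl4 lay at the threshold without passing it (log2 change 0.31, limma adjusted p = 0.05).

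Upstream of the DGAT step 2 of 10 tested genes rose and 1 fell as deposited, while after scaling 2 were lower and the other 8 did not pass. Gk, the glycerol kinase gene, was 1.57-fold higher at 4.89, 5.80 and 5.09 FPKM in libraries labelled PKI, against 3.97, 2.94 and 3.15 FPKM in WT libraries (limma adjusted p = 0.0102), and did not pass after scaling (0.085). Gpd1, which makes glycerol 3-phosphate from a glycolytic intermediate, rose 1.28-fold (21.2 ± 1.78 FPKM in libraries labelled PKI and 16.6 ± 1.24 FPKM in WT libraries, SD, n = 3 each), with a limma adjusted p = 0.0212 as deposited and 0.592 after scaling. Agpat3, an acyltransferase acting on lysophosphatidic acid, fell 1.26-fold (9.92 ± 0.533 FPKM in libraries labelled PKI and 12.5 ± 1.07 FPKM in WT libraries, SD, n = 3 each; limma adjusted p = 0.0236), and was lower after scaling (0.00626).

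Lipases and their partners other than the 10 genes showed 2 of 7 tested higher and 1 lower as deposited, and 1 higher and 2 lower after scaling. The lower 2 were Ces1d and Lipe, the gene of hormone-sensitive lipase. Lipe had a log2 change of −0.35 after scaling (limma adjusted p = 0.0243) and did not pass as deposited (−0.16, 0.151). Lipa, the acid lipase of lysosomes, rose 1.80-fold, at 9.35, 8.55 and 8.49 FPKM in libraries labelled PKI, against 4.96, 4.40 and 5.27 FPKM in WT libraries (log2 change 0.74, limma adjusted p = 0.00127; 0.50 after scaling, 0.00722). Macrophages are rich in this lipase, and their markers rose beside it as given above. The part of macrophages in the level of Lipa was not tested. Abhd5, the gene of the ATGL coactivator that perilipins can bind, rose 1.28-fold as deposited (7.66, 7.08 and 7.44 FPKM in libraries labelled PKI, against 6.19, 5.08 and 6.07 FPKM in WT libraries, limma adjusted p = 0.0259) and did not pass after scaling (0.604). Ces1d, a carboxylesterase with triglyceride hydrolase activity, was the gene of the list with the smallest p and fell to 10.3, 10.3 and 9.37 FPKM in libraries labelled PKI, against 21.7, 23.5 and 25.3 FPKM in WT libraries. It was 2.35-fold lower as deposited (log2 change −1.15, limma adjusted p = 0.000424) and lower after scaling (log2 change −1.41, limma adjusted p = 0.000608).

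Of 10 tested genes of droplet assembly and other droplet proteins, 3 rose and 1 fell as deposited, whereas after scaling 2 were lower, Fitm2 and Fitm1, and the other 8 did not pass. Fitm1, of the same family, had a log2 change of −0.60 after scaling (limma adjusted p = 0.0441). Fitm2, which takes part in droplet budding from the endoplasmic reticulum, fell 1.22-fold, with 21.7, 22.3 and 24.9 FPKM in libraries labelled PKI, against 29.5, 26.5 and 28.1 FPKM in WT libraries (log2 change −0.28, limma adjusted p = 0.0264; −0.54 after scaling, 0.00463). Ldah, a droplet-associated hydrolase, was 2.02-fold higher, at 2.86, 3.06 and 2.81 FPKM in libraries labelled PKI, against widely spread values of 1.47, 0.614 and 2.24 FPKM in WT libraries (limma adjusted p = 0.0394; 0.161 after scaling). Rab18, a GTPase of droplets, passed as deposited (32.0 ± 1.94 FPKM in libraries labelled PKI and 26.9 ± 2.12 FPKM in WT libraries, SD, n = 3 each; limma adjusted p = 0.0451) and had a log2 change of −0.02 after scaling.

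Of 8 transcription factors, 2 fell and 6 did not pass as deposited, and 3 were lower after scaling. Ppara, the fatty acid receptor that drives genes of oxidation and droplet proteins in heart, fell 1.37-fold, with 3.34, 3.59 and 3.93 FPKM in libraries labelled PKI, against 4.84, 5.44 and 4.62 FPKM in WT libraries (log2 change −0.37, limma adjusted p = 0.0149; −0.59 after scaling, 0.00529). Rxra, its dimer partner, fell 1.22-fold (5.08, 5.95 and 5.22 FPKM in libraries labelled PKI, against 6.30, 6.50 and 7.03 FPKM in WT libraries, limma adjusted p = 0.0439; 0.00789 after scaling). Nr1h3, the gene of the oxysterol receptor LXRα, did not pass (log2 change 0.28, limma adjusted p = 0.0831). As deposited, Lipa, Ces1d, Ppara, Acsl5 and Gk kept their calls without each library in turn, whereas the calls of Slc27a1, Acsl3, Gpd1, Agpat3, Abhd5, Fitm2, Ldah, Rab18 and Rxra were lost when at least 1 library was left out.

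**Figure D4:**
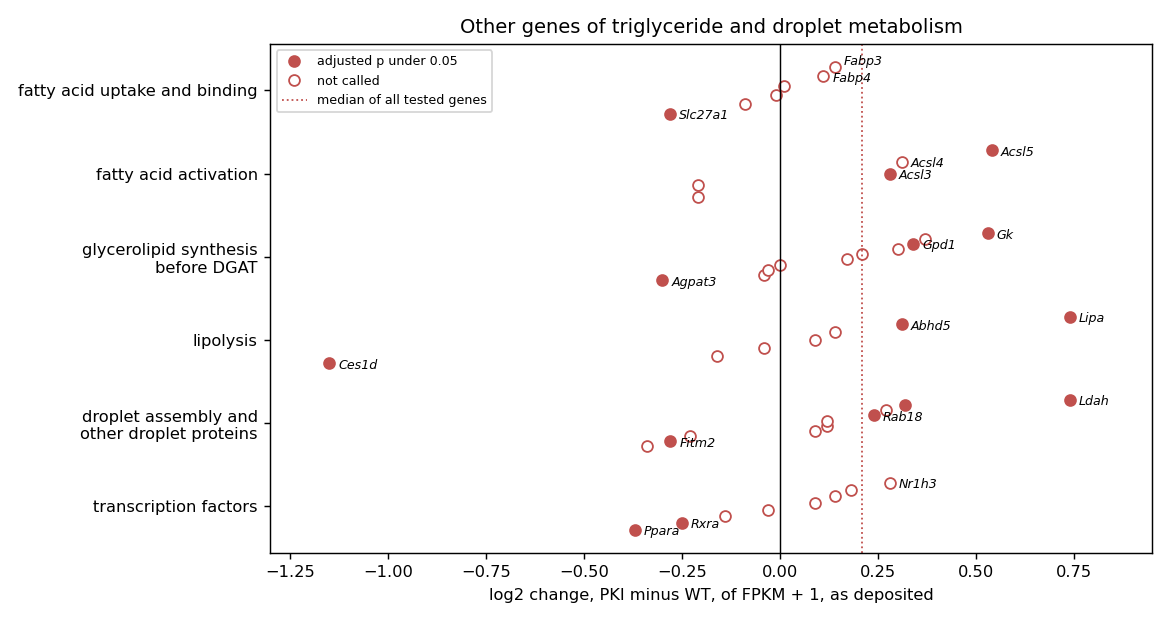
Log2 change (PKI minus WT, of FPKM + 1, as deposited) of the 46 tested pathway genes by role, filled where the adjusted p was under 0.05, with the up to 3 genes of smallest p per role named. Ces1d lies furthest below 0 and Lipa and Ldah furthest above, and the dotted line marks the median of all tested genes at 0.21.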

How the data were processed

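RNA of left ventricle was measured in 6 libraries, grouped by their titles. The deposited values are FPKM made by the authors, 1 per gene and library. Tools named, per the submitters' processing notes, are Bowtie 0.12.2 and CASAVA, with the build mm9 and no roles; the program behind the FPKM is not given in the sources used here. For 7 of the 10 genes the values have the form of a weighted average over transcripts; whether this moves their levels was not tested. Positions come from GENCODE M21 (GRCm38), matched by identifier.

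Of 24705 genes above 0 FPKM in any library, 9907 averaged 1 FPKM or more. These were fitted by limma (version 3.58.1, under R 4.3.3) as log2(FPKM + 1) values, two-sided and using its mean-variance trend, and p-values were Benjamini-Hochberg adjusted over all 9907. The fit was tested on simulated data without an overall shift between groups. Those data therefore cannot check calls that depend on the scaling. Depth being unknown, no counting intervals are given. The 10 genes and the lists were chosen with earlier results of these data known. In each role of the list the up to 3 genes with the smallest p are named. Beside Cidea, the gene with the smallest p, the 3 with the closest profile are named, predicted-gene names and genes without a symbol left out. Other named genes are markers, or were chosen after their values were seen. One symbol of the list, Ldaf1, was not matched. Protein sequences were not used here. Alternatives were each library left out, a replicate block, and other scalings, filters, pseudocounts and weights.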

Additional observations from a re-analysis of the deposited data

How the results depend on the processing

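Over all tested genes, 3609 were called higher and 293 lower as deposited, 846 and 815 with median-of-ratios scaling, 753 and 762 after quantile normalisation, 1019 and 603 with scaling by the nuclear total, and 1739 and 186 at a minimum mean of 5 FPKM, which tests fewer genes. Leaving out a library gave 2207 to 3178 higher and 165 to 261 lower. Among the 10 genes, 2 were called higher and 1 lower as deposited, and 1 and 2 with each of these 3 scalings (1 to 3 and 0 to 2 without a library). Pathway genes called were 9 higher and 6 lower as deposited, 2 and 14 with median-of-ratios scaling, 1 and 11 with quantile normalisation, 2 higher with the nuclear total, 3 and 3 with no filter, and 5 higher at a minimum mean of 5 FPKM (3 to 9 and 2 to 6 without a library).

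Scaling changed signs. In the order median-of-ratios, quantile and nuclear total, the log2 change of Plin3 was −0.05, 0.00 and 0.01 (no longer called), that of Plin4 −0.17, −0.18 and −0.12, that of Dgat1 −0.09, −0.12 and −0.05, and that of Fabp4 −0.16, −0.12 and −0.10. Plin5 was called lower in all 3 (−0.52, −0.52 and −0.46). Fabp3 turned with median-of-ratios (−0.13) and the nuclear total (−0.07), and Rab18 with median-of-ratios (−0.02) and quantile normalisation (−0.01). With array weights G0s2 was called higher (0.54) and Pnpla2 turned (0.03). The cause of each was not tested, beyond the lower PKI values that these scalings set by construction.

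Without a library, log2 changes lay between 0.17 and 0.35 for Plin2, 0.19 and 0.23 for Plin3, 0.05 and 0.11 for Plin4, −0.37 and −0.18 for Plin5, 0.05 and 0.14 for Dgat1, −0.35 and −0.26 for Dgat2, 0.54 and 0.68 for Cidea, 0.30 and 0.69 for G0s2, −0.57 and 0.32 for Mgll, and −0.10 and 0.02 for Pnpla2. Differences in log2 ratio of FPKM + 1 lay between 0.37 and 0.45 (Dgat1 to Dgat2), −0.60 and −0.42 (Plin5 to Plin2), 0.34 and 0.67 (G0s2 to Pnpla2) and −0.59 and 0.32 (Mgll to Pnpla2). With scaling and a library left out, an alternative chosen after seeing the data, Cidea lay between 0.30 and 0.41, and its call was lost without PKI replicate 1 (0.33), PKI replicate 3 (0.32), WT replicate 2 (0.30) or WT replicate 3 (0.31). Plin5 lay between −0.63 and −0.44, and passed without PKI replicate 3 (−0.58) or WT replicate 2 (−0.63), and Dgat2 between −0.62 and −0.52.

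Same-numbered libraries did not deviate together (correlations of deviations across genes of −0.104, 0.00115 and 0.0529), so the numbers were not taken as pairs. With a replicate block 2625 genes were called higher and 224 lower, 1 of the 10 genes higher (Plin3 at 0.21, adjusted p = 0.0615, no longer called) and 5 pathway genes higher. With the block and median-of-ratios scaling together, 573 genes were higher and 482 lower, 0 of the 10 higher and 2 lower, and 1 pathway gene higher. The log2 change was then 0.34 for Cidea (no longer called, adjusted p = 0.0564), −0.52 for Plin5 (called), −0.05 for Plin3, −0.17 for Plin4, −0.09 for Dgat1, −0.13 for Fabp3, −0.16 for Fabp4 and −0.02 for Rab18.

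Without PKI replicates 1 and 2, an alternative added after seeing the data that leaves 1 PKI library and 9652 tested genes, 428 genes were called higher and 48 lower, with 1 of the 10 genes higher and 0 lower, and 1 pathway gene higher and 1 lower. With scaling as well these counts were 69 and 47, 0 and 0, and 0 and 1. Log2 changes were then 0.21 and, with scaling, −0.04 for Plin3, −0.26 and −0.51 for Dgat2, 0.63 and 0.39 for Cidea, and −0.14 and −0.38 for Plin5, all without passing, and 0.71 (called) and 0.46 (not called) for G0s2.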

Other observations

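The pattern of Mgll, high in PKI replicate 2 and WT replicate 1, was shared by few genes, which were looked for after its values were seen. Of 9907 tested genes, 4 (0.0404%) had both of these libraries more than 1.5-fold above each of the other 4: Mgll, Btbd6, Kbtbd4 and Tor1b. Btbd6, which encodes a BTB domain protein, was at 0.840, 2.88 and 0.865 FPKM in libraries labelled PKI, against 3.10, 0.962 and 1.25 FPKM in WT libraries. Kbtbd4, of a related family, was at 1.20, 2.93 and 1.44 FPKM in libraries labelled PKI, against 3.43, 1.35 and 1.49 FPKM in WT libraries. All 4 genes have deposited values with more than 6 decimals, the form of an average over transcripts, as do 77.9% of tested genes, and Mgll has 10 transcripts of between 443 and 3991 bases in GENCODE M21. Whether the division of reads between transcripts plays a part was not tested.

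PKI replicate 2, in which G0s2 was at the WT level, was also low for Pcyt1a, the enzyme of phosphatidylcholine synthesis that binds growing droplets. Pcyt1a had 15.4, 6.36 and 15.9 FPKM in libraries labelled PKI, against 14.3, 13.9 and 13.5 FPKM in WT libraries, and did not pass the test (limma adjusted p = 0.556). With predicted-gene names and genes without a symbol again left out, the tested genes closest to G0s2 over the 6 libraries were Mest, Ip6k3 and N6amt1. Their root-mean-square distances were 0.106, 0.115 and 0.118 in centred log2(FPKM + 1).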
